A study of Mus musculus with 12 samples.

Results

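Naive CD4+ T cells that lack Ddx55, taken after 24 h of stimulation (KO 24 h), were compared with wild-type cells taken after 8 h (WT 8 h). The question was in which respects the KO cells had moved past, or away from, the early state of WT cells. The comparison uses 4 of the 12 libraries of the series, 2 per group, which were chosen by genotype and time alone. The cells were mouse naive CD4+ T cells from spleen and peripheral lymph nodes (given as pLN in the labels). Stimulation was by plate-bound anti-CD3 (5 ug/ml), which triggers the T cell receptor, together with anti-CD28 (2.5 ug/ml) for costimulation. RNA was depleted of ribosomal RNA and sequenced from stranded libraries, which held between 16810375 and 19126498 gene counts each over the series. KO 24 h cells carry the Ddx55 knockout and had 24 h of stimulation, and WT 8 h cells carry no knockout and had 8 h. Because genotype and time both differ, their effects cannot be told apart in this contrast alone. WT cells at 24 h and KO cells at 8 h, under the same stimulation, are therefore given beside it. The sources used here do not name the allele, the Cre driver or the age of the mice, nor do they say whether the replicates were separate animals. All p-values thus measure only the spread between these samples, which may be technical.

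A resting T cell that meets its antigen first switches on immediate early and nuclear receptor genes, then cytokines and their receptors, and enlarges its nucleolus, glycolysis and lipid synthesis before it enters S phase. Ddx55 belongs to the DEAD-box RNA helicases, and its human counterpart is known to act in the maturation of the large ribosomal subunit. Disturbed ribosome assembly is known to free ribosomal proteins that bind Mdm2, the ubiquitin ligase that holds p53 low, and p53 in turn drives genes of cell cycle arrest and death.

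Ddx55 itself checked the labels. Ddx55 (ENSMUSG00000029389, GRCm38 chromosome 5, 124552864 to 124569660) stood at 14.7 and 14.4 CPM in the KO 24 h libraries, against 68.7 and 64.1 CPM in the WT 8 h libraries. CPM are gene counts scaled to library size with TMM factors. The KO level was 21.9% of the WT 8 h level, a log2 fold change of -2.19 ± 0.11 (SE; edgeR adjusted p = 2.87e-09), so part of the RNA remained. The counts are per gene and the deleted exons are not given, so the remainder was not assigned to any transcript. Defining T cell genes were present in all 4 libraries, and Cd4 stood at 499 and 496 CPM in KO 24 h cells, against 275 and 265 CPM in WT 8 h cells. Of 19 T cell identity genes 3 rose and 8 fell, with a median log2 fold change of -0.23.

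Across the genome the distance between KO 24 h and WT 8 h cells was large. Of 15679 genes tested, 6419 passed an adjusted p of 0.05 (40.9%), 3461 higher (22.1%) and 2958 lower (18.9%) in KO 24 h cells. Which direction held more genes turned with the scaling, to 3155 higher and 3498 lower with RLE factors and 2814 higher and 3130 lower with DESeq2. At least 2-fold changes were made by 1760 higher genes (11.2%) and 816 lower genes (5.2%). The median log2 fold change over all tested genes was 0.02. With 2 libraries per group, libraries that did not overlap were common, at 38.6% of tested genes higher and 36% lower, so a lack of overlap alone says little. WT cells changed over the same interval in 6783 genes (43.3%), with 24% higher and 19.3% lower at 24 h than at 8 h. KO 24 h and WT 24 h cells differed in 6041 genes (38.5%; 17.9% higher and 20.7% lower in KO). KO cells changed in 5397 genes between 8 h and 24 h (34.4%; 18.9% higher and 15.6% lower at 24 h), while KO and WT cells at 8 h differed in 415 (2.65%; 1.9% higher and 0.746% lower in KO). Leaving out WT 8 h replicate 1 brought the 8 h count to 103, WT 8 h replicate 2 to 113 and KO 8 h replicate 2 to 175. These comparisons share the WT 8 h or KO 24 h libraries, so each is given with its own values. Leaving out any 1 of the 4 libraries left between 4389 and 4722 calls for KO 24 h against WT 8 h.

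The libraries placed KO 24 h cells between WT 8 h and WT 24 h on one axis, near the 0 h libraries, and on the KO side of another. The first principal component (56.8% of the variance of 2000 genes) set the stimulated libraries (26.8 to 52.7) apart from those at 0 h (-83.8 to -73.6). On the second principal component, which carried 18.8%, the KO 24 h libraries scored 3.81 and 6.80, against 59.9 and 57.9 for WT 24 h and -37.5 and -35.5 for WT 8 h. On the third component (13.6%) all 6 KO libraries scored below 0 and all 6 WT libraries above it, at every time. The KO 24 h libraries were lowest, at -34.5 and -45.8, beside -11.6 and -15.2 for KO 8 h, 17.9 and 20.7 for WT 24 h and 27.1 and 34.7 for WT 8 h. KO 24 h, WT 24 h and WT 8 h did not overlap on either of these axes.

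**Figure D1:**
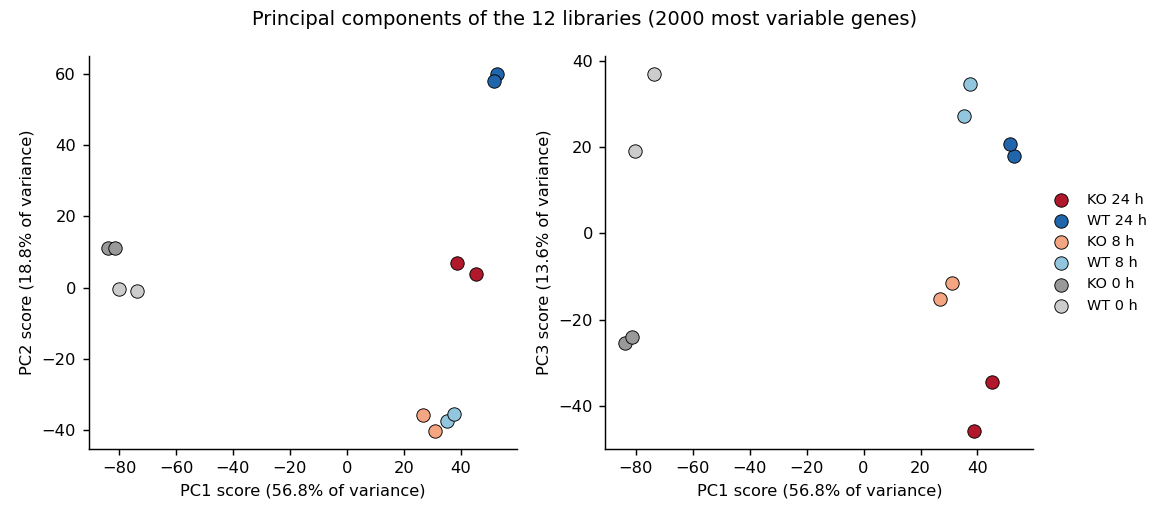
Scores of the 12 libraries (points, coloured by group) on principal components 1 to 3 of log2 CPM over the 2000 most variable genes. On component 2 the KO 24 h libraries (3.81 and 6.80) lie between WT 24 h (59.9 and 57.9) and WT 8 h (-37.5 and -35.5), as do the 0 h libraries. On component 3 the KO 24 h libraries lie below all other libraries.

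The S phase programme of KO 24 h cells was, in sum, at the level of WT 8 h cells. The 60 S phase genes, which license, prime and copy DNA, summed to 2329 and 2394 CPM in KO 24 h cells and to 14878 and 14441 CPM in WT 24 h cells, against 2386 and 2352 CPM in WT 8 h cells. The KO 24 h sums thus lay at the level of WT 8 h and far under that of WT 24 h. Of the 60 genes, 33 rose and 9 fell against WT 8 h, with a median log2 fold change of 0.38; without KO 24 h replicate 1 the lower count was 5. In WT cells all 60 were higher at 24 h than at 8 h (median 2.90), and all 60 were lower in KO 24 h than in WT 24 h cells (median -2.64).

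The sum hid genes that took different courses. Mcm5, a subunit of the replicative helicase, stood at 124 and 124 CPM in KO 24 h cells and at 841 and 841 CPM in WT 24 h cells, against 140 and 132 CPM in WT 8 h cells. KO 24 h cells were thus slightly under WT 8 h cells, a difference that did not pass (log2 -0.13 ± 0.09, adjusted p = 0.261). Cdc6, which loads that helicase onto origins, stood at 8.28 and 6.63 CPM in KO 24 h cells and at 155 and 148 CPM in WT 24 h cells, against 1.38 and 1.64 CPM in WT 8 h cells. Both KO 24 h libraries were above both WT 8 h libraries (log2 2.30 ± 0.23, adjusted p = 2.34e-06), at levels that were low beside those of WT 24 h.

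Other genes that fell short of WT 24 h were chosen by that shortfall, so their levels are a description. Mcm10, a helicase activator, stood at 7.68 and 7.39 CPM in KO 24 h and 161 and 145 CPM in WT 24 h cells, against 0.606 and 0.820 CPM in WT 8 h cells. That is 10.6-fold over WT 8 h for KO 24 h cells and 215-fold for WT 24 h cells. Clspn, a checkpoint adaptor of the replication fork, was 15.99-fold over WT 8 h in KO 24 h cells and 390-fold in WT 24 h cells. Pclaf, a PCNA partner, was 15.98-fold over WT 8 h in KO 24 h cells and 328-fold in WT 24 h cells. Genes already expressed at 8 h included members that fell. Cdt1, a licensing factor, fell to 29.96 and 27.5 CPM in KO 24 h cells, against 56.0 and 62.5 CPM in WT 8 h cells (log2 -1.04 ± 0.12, adjusted p = 1.16e-05). Ung, which removes uracil from DNA, fell to 29.3 and 23.5 CPM in KO 24 h cells, against 78.0 and 69.9 CPM in WT 8 h cells (log2 -1.49 ± 0.12, adjusted p = 4.59e-07). In WT cells both went the other way, to 166 and 171 CPM for Cdt1 and 185 and 193 CPM for Ung at 24 h.

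Upstream sequences of 4 genes that stand for the cell cycle and lipid results are shown, since their groups took different courses. Each is the 150 bases before the RefSeq start (GRCm38.p6), 5′ to 3′ on the strand of the gene, with the searched motif in capitals. The motif is E2F (TTCCCGC or TTGGCGC) for Mcm5 and Cdc6 and CCAAT for Ccnb1 and Cyp51, searched on both strands. The stretches lie at chr8:75109359-75109508 (plus strand), chr11:98908001-98908150 (plus), chr13:100786487-100786636 (minus) and chr5:4104698-4104847 (minus).
Mcm5: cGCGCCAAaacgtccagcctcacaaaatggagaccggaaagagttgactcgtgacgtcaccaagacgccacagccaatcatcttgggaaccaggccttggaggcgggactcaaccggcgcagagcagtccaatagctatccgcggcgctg
Cdc6: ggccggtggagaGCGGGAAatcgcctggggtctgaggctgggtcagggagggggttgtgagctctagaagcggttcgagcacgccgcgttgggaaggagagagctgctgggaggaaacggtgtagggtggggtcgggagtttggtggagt
Ccnb1: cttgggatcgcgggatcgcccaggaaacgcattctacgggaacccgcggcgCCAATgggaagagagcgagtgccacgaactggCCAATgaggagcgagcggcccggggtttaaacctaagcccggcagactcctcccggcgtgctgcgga
Cyp51: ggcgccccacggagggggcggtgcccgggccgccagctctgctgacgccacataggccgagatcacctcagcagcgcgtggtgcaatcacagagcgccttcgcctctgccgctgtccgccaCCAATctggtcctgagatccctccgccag

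Over the 250 bases before the start, the E2F letters were found for 14 of the 49 S phase genes with a RefSeq sequence (28.6%) and for 4 of 44 G2/M genes (9.09%). Among all 10454 tested genes with a sequence the share was 10.15%. CCAAT was found for 33 of 44 G2/M genes (75.0%), 30 of 49 S phase genes (61.2%), 15 of 17 cholesterol synthesis genes (88.2%) and 17 of 30 p53 target genes (56.7%), against 36.2% of all tested genes. TTTGAA, the core of the CHR element, was found for 16 of 44 G2/M genes (36.4%) and for 10.9% of all tested genes. The E2F letters and CCAAT can overlap in a promoter, as both can hold CCAA. These matches describe letters in the windows and are not binding sites.

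G2/M genes were above WT 8 h in most cases, though at low levels that in sum stayed under those at 0 h. Of 52 G2/M genes 46 rose and 1 fell against WT 8 h, with a median log2 fold change of 2.22. In WT cells 51 rose by 24 h (median 5.16), and 51 were lower in KO 24 h than in WT 24 h cells (median -2.91). The 52 genes summed to 792 and 971 CPM in KO 24 h cells, against 436 and 452 CPM in WT 8 h cells. At 0 h they summed to 1187 and 1255 CPM in KO and 1010 and 977 CPM in WT cells. Both KO 24 h sums were under all of these 0 h sums. Mki67, a coat protein of mitotic chromosomes, stood at 39.5 and 58.3 CPM in KO 24 h cells and at 621 and 449 CPM in WT 24 h cells, against 3.03 and 2.696 CPM in WT 8 h cells. Ccnb1, the mitotic cyclin whose upstream stretch is shown above, stood at 4.79 and 7.33 CPM in KO 24 h and 56.9 and 43.5 CPM in WT 24 h cells, against 0.882 and 0.762 CPM in WT 8 h cells. For both genes the KO 24 h libraries lay above WT 8 h and below WT 24 h without overlap (log2 against WT 8 h 4.09 ± 0.41, adjusted p = 0.000149, for Mki67 and 2.87 ± 0.36, adjusted p = 3.06e-05, for Ccnb1). Aurkb, a kinase of the mitotic spindle, was 22.8-fold over WT 8 h in KO 24 h cells and 285-fold in WT 24 h cells. An exception was Kif15, a spindle motor, which fell to 10.3 and 13.3 CPM in KO 24 h cells, against 54.1 and 48.8 CPM in WT 8 h cells (log2 -2.13 ± 0.19, adjusted p = 3.6e-06).

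Histone and DNA repair genes were far below WT 24 h as well. Of 32 replication-dependent histone genes tested (50 were listed), 11 rose and none fell against WT 8 h. The number that rose was 6 without KO 24 h replicate 1 and 7 without either WT 8 h library. Their median log2 fold change was 1.55, or 1.16 with the 6 genes that had a group at 0 set at their bound. The 50 listed genes summed to 22.0 and 17.5 CPM in KO 24 h cells, against 6.89 and 6.68 CPM in WT 8 h cells. The sums were 104 and 111 CPM in WT 24 h cells. At 0 h they were 63.7 and 67.4 CPM in KO and 56.5 and 58.4 CPM in WT cells, above those of KO 24 h. Reads of these near-identical genes may be split by the counting, so single members are uncertain. Of 50 DNA repair genes 17 rose and 6 fell (median 0.18), and 3 fell without KO 24 h replicate 1 or without WT 8 h replicate 1. Their sums were 1613 and 1677 CPM in KO 24 h and 4278 and 3942 CPM in WT 24 h cells, against 1691 and 1657 CPM in WT 8 h cells, so KO 24 h and WT 8 h overlapped. In bulk libraries, fewer cells in a cycle phase and less RNA per cell cannot be told apart.

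**Figure D2:**
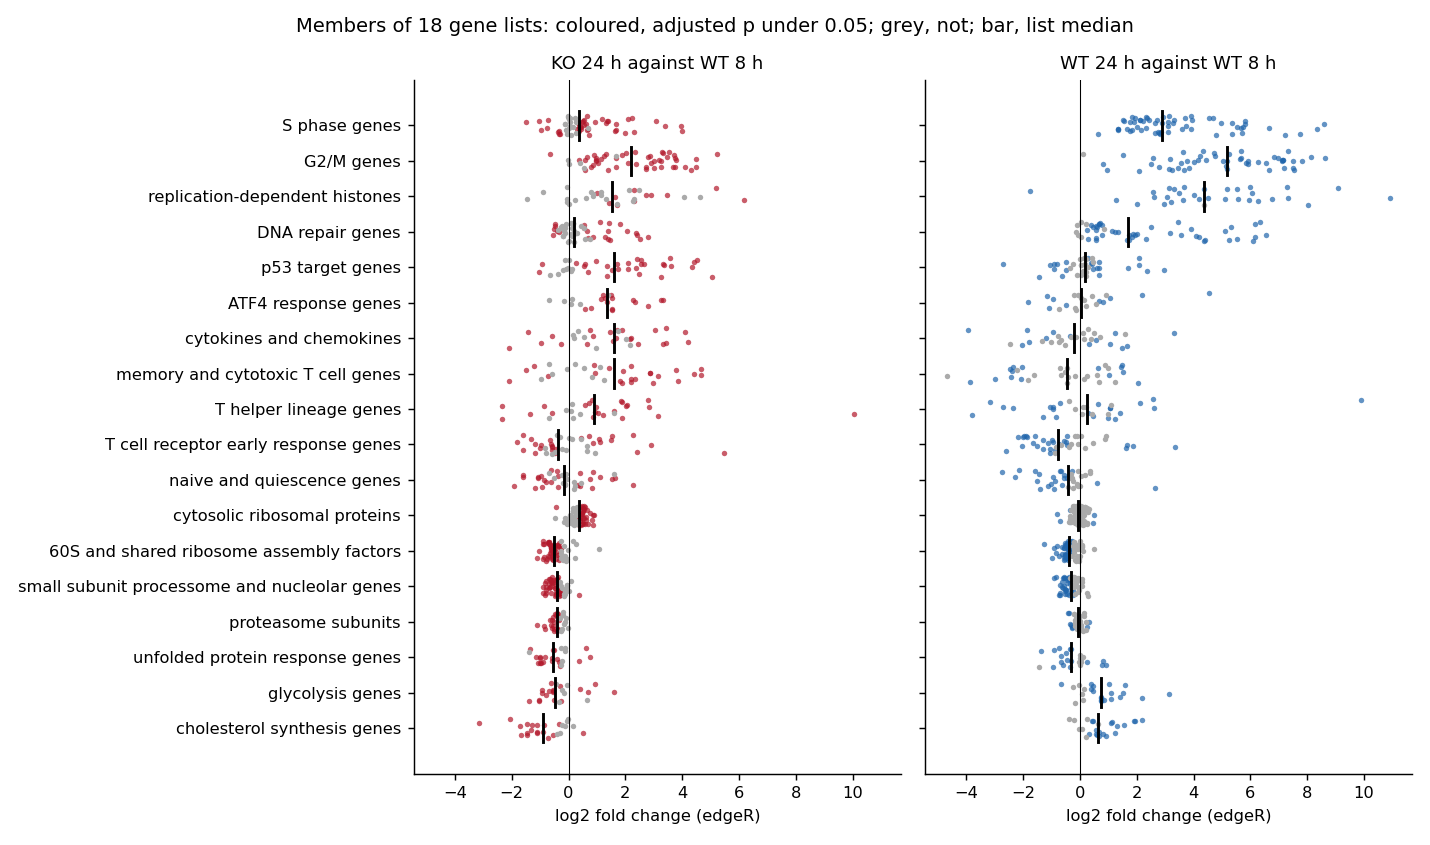
Log2 fold changes (edgeR) of the tested members of 18 gene lists for KO 24 h against WT 8 h (left) and WT 24 h against WT 8 h (right). Each point is a gene, coloured when its adjusted p is under 0.05, and the bar is the list's median. S phase genes have medians of 0.38 (left) and 2.90 (right), p53 target genes 1.62 and 0.19, and cholesterol synthesis genes -0.90 and 0.65.

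The p53 target genes were a group in which KO 24 h cells had moved away from both WT states. Of 38 p53 target genes tested, 27 rose and 2 fell against WT 8 h (median 1.62), and 28 were higher and 3 lower than in WT 24 h cells (median 1.45). Their summed level was 7180 and 6811 CPM in KO 24 h and 1751 and 2082 CPM in WT 24 h cells, against 2394 and 2685 CPM in WT 8 h cells. Psrc1, a microtubule regulator, stood at 517 and 500 CPM in KO 24 h and 31.7 and 43.5 CPM in WT 24 h cells, against 21.2 and 26.0 CPM in WT 8 h cells. KO 24 h libraries were far above both WT groups (log2 against WT 8 h 4.43 ± 0.15, adjusted p = 1.81e-10; against WT 24 h 3.76 ± 0.14, adjusted p = 1.74e-10). Cdkn1a, the CDK inhibitor p21, stood at 1220 and 1061 CPM in KO 24 h and 56.7 and 87.6 CPM in WT 24 h cells, against 88.0 and 97.8 CPM in WT 8 h cells (log2 against WT 8 h 3.62 ± 0.33, adjusted p = 7.27e-05).

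These targets had already risen in KO cells by 8 h. At 8 h 21 of the 38 were higher in KO than in WT cells and none was lower, beside the 1.9% of all tested genes that were higher. Leaving out WT 8 h replicate 1 brought the 21 to 12, WT 8 h replicate 2 to 14, and either KO 8 h library to 17 or 16. Between 8 h and 24 h in KO cells 19 rose further and 4 fell. Zmat3, an RNA-binding protein, stood at 373 and 356 CPM in KO 24 h and 169 and 183 CPM in KO 8 h cells, against 55.3 and 61.1 CPM in WT 8 h cells. Mdm2 stood at 275 and 250 CPM in KO 24 h and 167 and 159 CPM in KO 8 h cells, against 99.9 and 106 CPM in WT 8 h cells. For both genes the KO 24 h libraries were highest and the WT 8 h libraries lowest, without overlap. The KO 24 h value against WT 8 h is the sum of the 2 steps, which for Psrc1 were 2.62 ± 0.14 (KO against WT at 8 h) and 1.81 ± 0.13 (KO at 24 h against 8 h) on the log2 scale.

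Genes of cell death and of survival both rose. Among 9 BCL-2 family death genes 5 rose and 1 fell, led by Bbc3 (PUMA), at 176 and 172 CPM in KO 24 h cells against 24.9 and 34.4 CPM in WT 8 h cells (log2 2.55 ± 0.19, adjusted p = 1.79e-06). Bax rose less (0.58 ± 0.12, adjusted p = 0.00106), and Bid, which links death receptors to mitochondria, fell by 0.94 ± 0.12 (adjusted p = 3.28e-05). Fas, the death receptor, stood at 132 and 112 CPM in KO 24 h cells against 24.9 and 32.2 CPM in WT 8 h cells (log2 2.10 ± 0.14, adjusted p = 3.63e-08). Among 7 survival genes 4 rose and 2 fell. Bcl2l1 (BCL-XL) stood at 651 and 541 CPM in KO 24 h and 367 and 374 CPM in WT 24 h cells, against 212 and 191 CPM in WT 8 h cells, so both 24 h groups were above WT 8 h (log2 for KO 24 h 1.56 ± 0.14, adjusted p = 1.79e-06). The Bcl2a1 copies share sequence, and Bcl2a1d, which fell by 1.79 ± 0.21, is uncertain for that reason.

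CDK inhibitors, pocket proteins and D cyclins also leaned upwards, as they did in WT cells by 24 h. Of 13 tested, 8 rose and 1 fell against WT 8 h (median 0.69), beside 7 that rose and 1 that fell in WT cells (median 0.59). Against WT 24 h cells 5 were higher and 4 lower in KO 24 h cells (median -0.29). Rbl2 (p130), a pocket protein that represses E2F targets in resting cells, stood at 72.8 and 73.3 CPM in KO 24 h and 30.2 and 29.1 CPM in WT 24 h cells, against 17.9 and 19.4 CPM in WT 8 h cells (log2 against WT 8 h 1.97 ± 0.16, adjusted p = 4.59e-07). In the MYC and MAX network the repressors Mxd1 and Mxd4 were 4.85-fold and 5.10-fold over WT 8 h. Myc itself fell to 627 and 568 CPM in KO 24 h and 482 and 475 CPM in WT 24 h cells, against 914 and 856 CPM in WT 8 h cells (log2 for KO 24 h -0.57 ± 0.11, adjusted p = 0.00068).

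**Figure D3:**
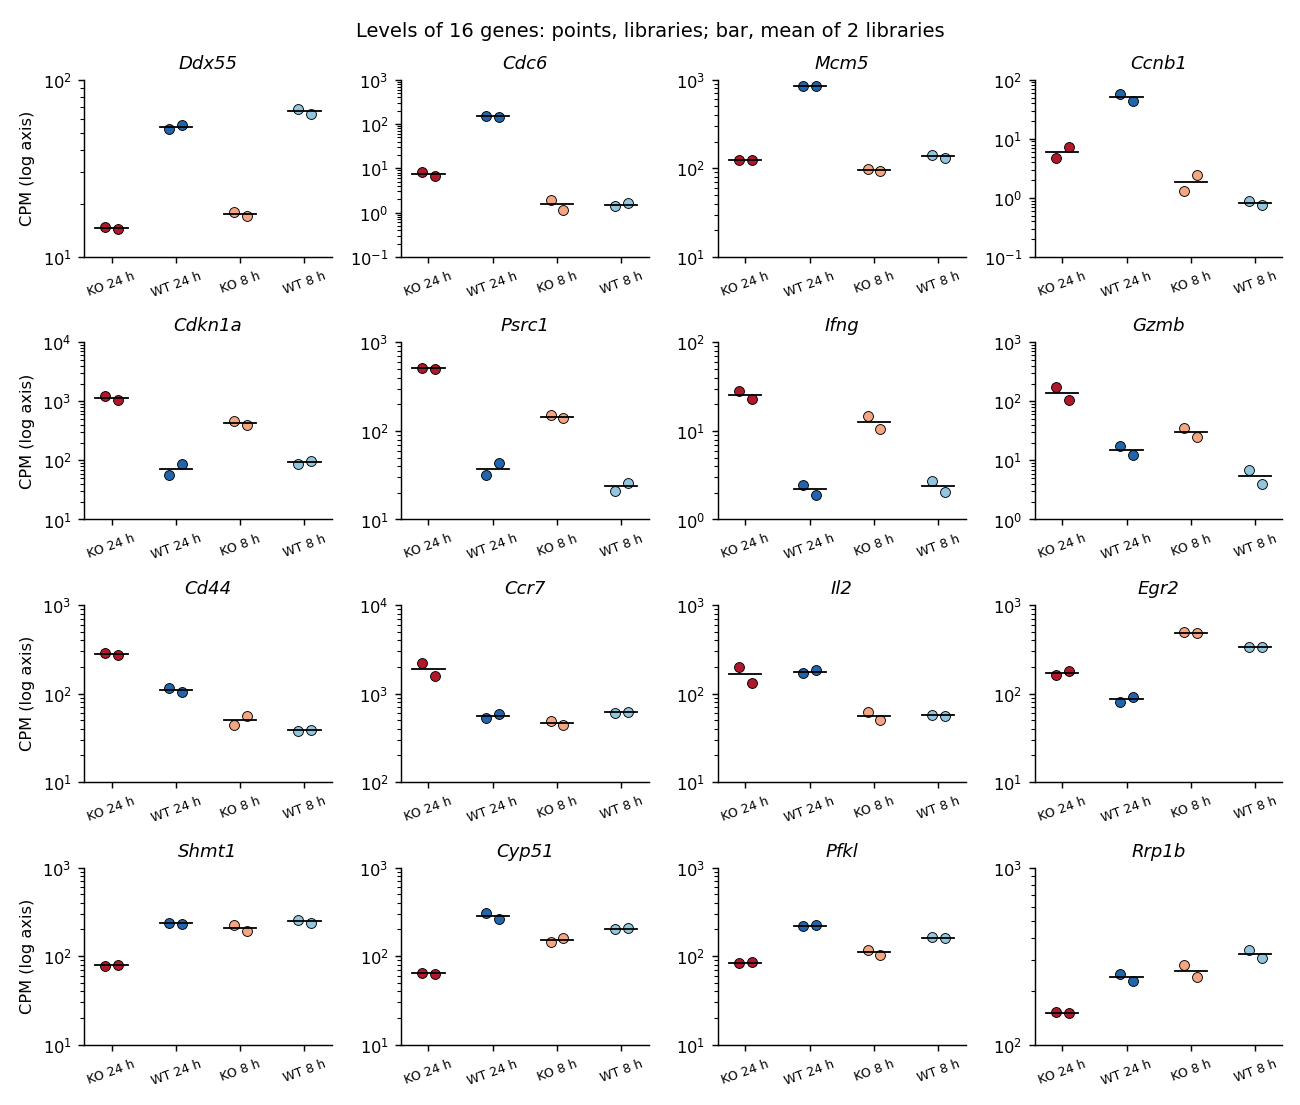
Levels of 16 genes (CPM, log axis) in KO 24 h, WT 24 h, KO 8 h and WT 8 h cells. Points are the 2 libraries of a group and bars their mean. Mcm5 in KO 24 h cells (124 and 124 CPM) sits at the level of WT 8 h cells (140 and 132 CPM), whereas Psrc1 (517 and 500 CPM) and Ccr7 (2217 and 1570 CPM) lie above both WT groups.

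The early response to the T cell receptor had declined in KO 24 h cells, as it had in WT cells, but less far. Of 40 early response genes 11 rose and 15 fell against WT 8 h (median -0.35). In WT cells 4 rose and 23 fell by 24 h (median -0.78), and 23 were higher and 1 lower in KO 24 h than in WT 24 h cells (median 0.66). Egr2, a zinc finger factor induced by the receptor, stood at 161 and 178 CPM in KO 24 h and 80.8 and 92.1 CPM in WT 24 h cells, against 337 and 335 CPM in WT 8 h cells. KO 24 h libraries lay between the WT times, with no overlap (log2 against WT 8 h -0.99 ± 0.10, adjusted p = 2.22e-06; against WT 24 h 0.97 ± 0.10, adjusted p = 2.25e-06). Spry1, a feedback inhibitor of ERK signalling, fell by 1.19 ± 0.13 and Nfatc1 by 0.96 ± 0.10 against WT 8 h. Nfkb2 of the alternative NF-kB arm went the other way, to 1187 and 955 CPM in KO 24 h and 420 and 429 CPM in WT 24 h cells, against 591 and 585 CPM in WT 8 h cells (log2 against WT 8 h 0.87 ± 0.11, adjusted p = 3.06e-05).

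Receptors of activation split into those that went with time and those that did not. Of 34 activation and checkpoint receptors 14 rose and 13 fell (median 0.10). Cd44, an adhesion receptor of antigen-experienced T cells, stood at 287 and 273 CPM in KO 24 h and 114 and 103 CPM in WT 24 h cells, against 37.8 and 39.0 CPM in WT 8 h cells. Its KO 24 h level was 7.29-fold over WT 8 h, past the 2.82-fold of WT 24 h cells (log2 KO 24 h against WT 24 h 1.37 ± 0.11, adjusted p = 1.85e-07). Tnfrsf18 (GITR) followed that order, at 204 and 159 CPM in KO 24 h and 71.5 and 79.9 CPM in WT 24 h cells, against 50.2 and 44.4 CPM in WT 8 h cells. Il2rb stood at 487 and 434 CPM in KO 24 h and 370 and 369 CPM in WT 24 h cells, against 140 and 120 CPM in WT 8 h cells, so both 24 h groups lay above WT 8 h. Cd40lg, the helper ligand for B cells, fell to 30.7 and 31.1 CPM in KO 24 h and stood at 96.2 and 122 CPM in WT 24 h cells, against 176 and 156 CPM in WT 8 h cells (log2 against WT 8 h -2.43 ± 0.22, adjusted p = 1.64e-05; against WT 24 h -1.82 ± 0.21, adjusted p = 0.0001).

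Naive and quiescence genes did not move as one group. Of 38 tested, 10 rose and 15 fell against WT 8 h (median -0.16), and 6 rose without WT 8 h replicate 1. Il7r, the IL-7 receptor chain, fell to 29.4 and 24.4 CPM in KO 24 h and 11.5 and 13.0 CPM in WT 24 h cells, against 85.3 and 79.1 CPM in WT 8 h cells. S1pr1, which guides egress from lymph nodes, and its activator Klf2 fell by 1.59 ± 0.20 and 1.93 ± 0.32. Ccr7, the lymph node homing receptor, went the other way, to 2217 and 1570 CPM in KO 24 h and 536 and 592 CPM in WT 24 h cells, against 604 and 620 CPM in WT 8 h cells. Both KO 24 h libraries lay above all 4 WT libraries (log2 against WT 8 h 1.63 ± 0.14, adjusted p = 7.81e-07; against WT 24 h 1.75 ± 0.14, adjusted p = 3.07e-07). Foxo3, a quiescence factor, stood at 179 and 177 CPM in KO 24 h and 63.6 and 63.5 CPM in WT 24 h cells, against 59.6 and 64.3 CPM in WT 8 h cells.

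Effector genes leaned above the WT 8 h state, and part of that gap was there in KO cells at 8 h. Of 30 cytokine and chemokine genes tested, 17 rose and 5 fell against WT 8 h (median 1.604), and 18 were higher and none lower than in WT 24 h cells (median 1.28). In KO cells at 8 h, 9 of the 30 were already higher than in WT 8 h cells and none was lower (median 1.08). Between 8 h and 24 h in KO cells 10 rose and 6 fell (median 0.29). Ifng, the signature cytokine of Th1 cells, stood at 28.3 and 22.6 CPM in KO 24 h and 2.48 and 1.89 CPM in WT 24 h cells, against 2.701 and 2.05 CPM in WT 8 h cells (log2 against WT 8 h 3.42 ± 0.41, adjusted p = 6.6e-05; against WT 24 h 3.54 ± 0.41, adjusted p = 4.88e-05). The KO 24 h mean was 10.7-fold over that of WT 8 h. Ccl1, a chemokine for CCR8-bearing cells, stood at 9.48 and 12.9 CPM in KO 24 h and 10.6 and 8.67 CPM in KO 8 h cells, against 1.10 and 1.64 CPM in WT 8 h cells, so its level was reached by 8 h. Il2, the T cell growth factor, stood at 201 and 132 CPM in KO 24 h and 170 and 184 CPM in WT 24 h cells, against 57.6 and 55.7 CPM in WT 8 h cells, and the 24 h groups overlapped. Tnf and Fasl fell by 0.96 ± 0.12 and 2.10 ± 0.19 against WT 8 h.

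Memory, cytotoxic and helper lineage genes gave a similar picture. Of 32 memory and cytotoxic T cell genes 19 rose and 4 fell (median 1.62), and 2 fell without KO 24 h replicate 1. At 8 h 12 of the 32 were already higher in KO than in WT cells and none was lower (median 1.31). Between 8 h and 24 h in KO cells 10 rose and 9 fell (median 0.17). At 0 h the 33 listed genes summed to 1207 and 861 CPM in KO and 518 and 469 CPM in WT cells. Gzmb, a protease of cytotoxic granules, stood at 178 and 104 CPM in KO 24 h and 17.6 and 12.5 CPM in WT 24 h cells, against 6.95 and 4.04 CPM in WT 8 h cells (log2 against WT 8 h 4.67 ± 0.40, adjusted p = 5.52e-05; against WT 24 h 3.23 ± 0.36, adjusted p = 0.00024). Of 30 helper lineage genes 18 rose and 5 fell (median 0.89). Tbx21, the Th1 factor T-bet, stood at 72.6 and 70.0 CPM in KO 24 h and 69.6 and 53.2 CPM in WT 24 h cells, against 9.37 and 10.96 CPM in WT 8 h cells. KO 24 h cells were 7.01-fold and WT 24 h cells 6.04-fold over WT 8 h, and their difference did not pass (0.22 ± 0.17, adjusted p = 0.351). Gata3, the Th2 factor, stood at 46.7 and 32.4 CPM in KO 24 h and 10.45 and 11.7 CPM in WT 24 h cells, against 11.4 and 9.79 CPM in WT 8 h cells. Stat5a, which carries IL-2 signals, stood at 776 and 719 CPM in KO 24 h and 252 and 242 CPM in WT 24 h cells, against 203 and 203 CPM in WT 8 h cells. Bcl6 of follicular helper cells fell in both 24 h groups, to 15.5 and 18.8 CPM in KO 24 h and 9.70 and 9.69 CPM in WT 24 h cells, against 86.0 and 88.3 CPM in WT 8 h cells. Markers of CD8 T cells and NK cells, 12 in all, summed to 118 and 63.1 CPM in KO 24 h cells, against 29.0 and 25.5 CPM in WT 8 h cells. Eomes, a T-box factor that activated CD4+ T cells can also express and that is in the helper and memory lists, made up 95.7 and 45.6 CPM of the KO 24 h sums and 8.32 and 7.44 CPM of the WT 8 h sums. The other 11 markers summed to 22.1 and 17.5 CPM in KO 24 h cells, against 20.7 and 18.05 CPM in WT 8 h cells, and overlapped. Of the 12 markers 3 passed as higher, and 1 passed when KO 24 h replicate 1 or WT 8 h replicate 2 was left out. Their part in these results was not tested.

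Genes of ribosome assembly fell, and in this respect KO 24 h cells went the same way as WT 24 h cells. Of 67 assembly factors of the 60S subunit or of both subunits none rose and 51 fell against WT 8 h (median -0.51), beside 42 that fell in WT cells by 24 h (median -0.39). Of 62 small subunit processome and nucleolar genes 1 rose and 48 fell (median -0.40), and 25 fell without KO 24 h replicate 2 and 28 without WT 8 h replicate 1. Rrp1b, a nucleolar assembly protein, stood at 153 and 151 CPM in KO 24 h and 251 and 229 CPM in WT 24 h cells, against 342 and 310 CPM in WT 8 h cells. KO 24 h libraries were the lowest of the 3 groups (log2 against WT 8 h -1.10 ± 0.10, adjusted p = 1.13e-06; against WT 24 h -0.66 ± 0.10, adjusted p = 0.000119). Sdad1, needed for export of the large subunit in yeast, stood at 147 and 146 CPM in KO 24 h and 153 and 141 CPM in WT 24 h cells, against 277 and 270 CPM in WT 8 h cells, with overlapping 24 h groups. Polr1b, a subunit of RNA polymerase I, fell by 0.78 ± 0.10 against WT 8 h.

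Ribosomal protein genes went the other way from assembly factors in KO cells. Of 80 cytosolic ribosomal protein genes 45 rose and 1 fell against WT 8 h (median 0.36), beside 2 that rose and 4 that fell in WT cells by 24 h (median -0.07). The count of higher genes was 15 without WT 8 h replicate 2 and 19 without KO 24 h replicate 1, so it depends on these libraries. Rps12 stood at 3308 and 3092 CPM in KO 24 h and 1943 and 2142 CPM in WT 24 h cells, against 1710 and 1688 CPM in WT 8 h cells (log2 against WT 8 h 0.91 ± 0.13, adjusted p = 4.74e-05). Rplp0, of the ribosomal stalk, rose by 0.86 ± 0.12. These genes have many processed copies in the genome, and the sources do not give how shared reads were counted.

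Lipid and sugar metabolism moved below the WT 8 h state while WT cells went above it. Of 25 cholesterol synthesis and uptake genes 1 rose and 17 fell against WT 8 h (median -0.90), whereas 18 rose and none fell in WT cells by 24 h (median 0.65). Against WT 24 h cells 24 of the 25 were lower (median -1.69). Cyp51, a demethylase of the sterol pathway whose upstream stretch is shown above, stood at 64.3 and 63.2 CPM in KO 24 h and 305 and 263 CPM in WT 24 h cells, against 203 and 206 CPM in WT 8 h cells (log2 against WT 8 h -1.68 ± 0.16, adjusted p = 5.18e-06; against WT 24 h -2.16 ± 0.16, adjusted p = 5.25e-07). KO 24 h libraries were below both WT groups.

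Glycolysis genes showed the same order at smaller sizes. Of 24 tested, 4 rose and 14 fell against WT 8 h (median -0.48), while 17 rose and 1 fell in WT cells by 24 h (median 0.73). Pfkl, of the committed step, stood at 82.7 and 86.2 CPM in KO 24 h and 218 and 222 CPM in WT 24 h cells, against 162 and 159 CPM in WT 8 h cells (log2 against WT 8 h -0.93 ± 0.09, adjusted p = 2.51e-06). Ldha, which makes lactate, fell by 0.69 ± 0.11 and the lactate carrier gene Slc16a1 by 1.05 ± 0.11. An exception was Ldhb, at 47.6 and 54.2 CPM in KO 24 h cells against 16.1 and 17.2 CPM in WT 8 h cells. Of 31 nucleotide and one-carbon synthesis genes 9 rose and 15 fell (median -0.32), beside 22 that rose and 2 that fell in WT cells (median 0.41). Shmt1, the cytosolic serine hydroxymethyltransferase, stood at 78.3 and 80.1 CPM in KO 24 h and 239 and 230 CPM in WT 24 h cells, against 258 and 236 CPM in WT 8 h cells. Of 12 mitochondrially encoded genes 8 fell and none rose, and mt-Nd2 fell by 0.70 ± 0.11.

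Stress pathways diverged. Of 21 ATF4 response genes tested 15 rose and none fell against WT 8 h (median 1.35), beside 5 that rose and 5 that fell in WT cells by 24 h (median 0.05). Ddit3 (CHOP), a stress transcription factor, stood at 56.3 and 56.4 CPM in KO 24 h and 8.46 and 8.98 CPM in WT 24 h cells, against 18.8 and 20.3 CPM in WT 8 h cells. KO and WT cells thus moved apart from the 8 h level (log2 KO 24 h against WT 24 h 2.69 ± 0.12, adjusted p = 7.24e-10). Sesn2, a leucine sensor that p53 also drives, was 9.57-fold over WT 8 h in KO 24 h cells, and this list shares Sesn2 with the p53 list. Of 25 unfolded protein response genes 3 rose and 16 fell (median -0.54), beside 4 that rose and 13 that fell in WT cells by 24 h (median -0.31). The disulfide isomerase gene Pdia6 stood at 142 and 147 CPM in KO 24 h and 267 and 274 CPM in WT 24 h cells, against 354 and 381 CPM in WT 8 h cells. Of 31 proteasome subunit genes 22 fell and none rose (median -0.41), beside 6 that fell and 2 that rose in WT cells (median -0.06). Psmd1, of the regulatory particle, fell by 1.11 ± 0.10.

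Genes chosen by size of change alone came from many families. Among the 10 higher genes with the largest fold change were the axon guidance receptor Robo3, the transporter Slc4a11, the transcription factor Zfp750, the adenylate kinase Ak1 and the peptide hormone Adm. Slc4a11 stood at 35.7 and 52.0 CPM in KO 24 h and 2.48 and 4.17 CPM in WT 24 h cells, against 0.496 and 0.176 CPM in WT 8 h cells. Zfp750 stood at 20.5 and 18.8 CPM in KO 24 h and 0.377 and 1.41 CPM in WT 24 h cells, against 0.0551 and 0.293 CPM in WT 8 h cells. Robo3 had 470 counts over the KO 24 h libraries and 2 over the WT 8 h libraries. Each of these had both KO 24 h libraries above both WT 24 h libraries as well.

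The other 5 of these 10 genes, Ccl6, Fcer1a, Alox5, Epx and Ms4a2, are known from granulocytes, basophils, mast cells or other myeloid cells. Fcer1a, Alox5, Epx and Ms4a2 did not pass when either WT 8 h library was left out, and none of the 5 passed in a fit of the KO 24 h and WT 8 h groups alone. Of 13 basophil and mast cell markers tested 12 were higher in KO 24 h than in WT 8 h cells. The number was 3 without WT 8 h replicate 1, 5 when WT 8 h replicate 2 was left out and 5 in a fit of the 2 groups alone. All 16 listed, of which 2 were at 0 in KO 24 h and 3 in WT 8 h cells, summed to 189 and 670 CPM in KO 24 h and 132 and 415 CPM in KO 8 h cells, against 14.6 and 11.1 CPM in WT 8 h cells. At 0 h they summed to 326 and 835 CPM in KO and 46.8 and 24.6 CPM in WT cells. KO replicate 2 was the higher library at all 3 times, and these sums were above WT before stimulation. Mcpt8, a basophil protease, stood at 57.0 and 226 CPM in KO 24 h cells against 3.36 and 1.99 CPM in WT 8 h cells. Eosinophil markers summed to 31.6 and 106 CPM in KO 24 h cells, against 3.53 and 1.29 CPM in WT 8 h cells, and 6 of 7 tested passed as higher. That number was between 1 and 3 when KO 24 h replicate 2 or either WT 8 h library was left out. Markers of neutrophils and granulocyte precursors summed to 23.3 and 89.5 CPM in KO 24 h cells, against 2.21 and 2.05 CPM in WT 8 h cells, and 4 of 15 passed (2 and 1 on leaving out the first or the other WT 8 h library). For myeloid and dendritic cell markers the sums were 53.8 and 55.4 CPM in KO 24 h cells, against 27.3 and 26.7 CPM in WT 8 h cells, and 4 of 15 passed. The part of these cells in other results was not tested.

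Genes lower by the most included several of the interferon-inducible Ifi200 family. Ifi213 stood at 3.76 and 5.45 CPM in KO 24 h and 1.94 and 3.03 CPM in WT 24 h cells, against 33.9 and 30.9 CPM in WT 8 h cells, and Ifi214 fell by 3.78 ± 0.50. Near-identical neighbours make single members of this family uncertain. Both 24 h groups were low, so these falls were shared with WT. The 65 interferon-stimulated genes tested held as many that rose (16) as fell (16), with a median of -0.12. Gbp5, a guanylate-binding protein, stood at 308 and 270 CPM in KO 24 h and 206 and 202 CPM in WT 24 h cells, against 45.9 and 56.6 CPM in WT 8 h cells. Ramp3, a receptor-modifying protein, and Chst2, a sulfotransferase, were 11.9-fold and 7.05-fold lower in KO 24 h than in WT 8 h cells. Ipcef1 was 6.78-fold lower in KO 24 h cells, and its level was 137 and 142 CPM in WT 24 h cells, against 715 and 792 CPM in WT 8 h cells.

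The repeat share of KO 24 h cells overlapped that of WT 8 h cells over all loci. Outside genes both KO 24 h shares were under both WT 8 h shares, but only by 1.62% against 1.63% at the nearest libraries. A test of 2 against 2 libraries cannot judge this. Most subfamilies that passed there were higher. Counts at LINE, SINE, LTR and DNA repeats were 6.85% and 7.62% of gene counts in KO 24 h and 6.30% and 6.03% in WT 24 h cells, against 7.46% and 8.09% in WT 8 h cells. The KO 24 h and WT 8 h libraries overlapped (7.23 ± 0.544% against 7.78 ± 0.448%, SD, n = 2 each; exact permutation p = 0.667, two-sided, where 0.3333 is the smallest that 2 against 2 allows). Over loci outside annotated genes the share was 1.31% and 1.62% in KO 24 h and 1.14% and 1.21% in WT 24 h cells, against 1.63% and 1.97% in WT 8 h cells, with no overlap between KO 24 h and WT 8 h (exact permutation p = 0.3333, two-sided, the smallest possible). Of 1178 repeat subfamilies 70 passed against WT 8 h (5.94%), 31 higher (2.63%) and 39 lower (3.31%), with a median log2 fold change of -0.00362. Leaving out 1 library gave between 21 and 40. In WT cells 268 passed between 8 h and 24 h (22.8%), 33 higher (2.8%) and 235 lower (19.9%) at 24 h, with a median of -0.33. Against WT 24 h, 157 subfamilies were higher in KO 24 h cells (13.3%) and 27 lower (2.29%), 15.6% in all, with a median of 0.34.

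The largest repeat differences lay in endogenous retroviruses, though LTR subfamilies made up 775 of the 1178 tested. The internal region of MMERGLN, an ERV1 element, stood at 777 and 996 CPM in KO 24 h and 384 and 266 CPM in WT 24 h cells, against 253 and 193 CPM in WT 8 h cells. The KO 24 h libraries lay above all 4 WT libraries (log2 against WT 8 h 1.99 ± 0.27). KO 8 h cells already stood at 522 and 649 CPM, and the step to KO 24 h did not pass (0.60 ± 0.26, edgeR adjusted p = 0.205). At 0 h MMERGLN stood at 268 and 386 CPM in KO and 88.0 and 62.6 CPM in WT cells, a gap present before stimulation. MMTV elements (ERVK) stood at 25.1 and 29.7 CPM in KO 24 h and 8.40 and 7.04 CPM in WT 24 h cells, against 4.08 and 5.10 CPM in WT 8 h cells. They too were above WT at 0 h, at 20.2 and 31.4 CPM in KO and 4.25 and 5.24 CPM in WT cells. ERVB2_1 elements (ERVK) fell to 5.01 and 7.93 CPM in KO 24 h and 3.39 and 4.76 CPM in WT 24 h cells, against 43.7 and 55.5 CPM in WT 8 h cells. Of 409 ERVK subfamilies 6 rose and 21 fell, and of 151 L1 subfamilies 7 rose and 1 fell, against WT 8 h. Over all 1178 subfamilies 70 passed (5.94%), 31 higher (2.63%) and 39 lower (3.31%). Between 38.7% and 41.6% of the repeat counts of the KO 24 h and WT 8 h libraries lay in annotated exons. Over loci outside annotated genes 71 of 782 subfamilies passed, 53 higher and 18 lower, with a median of 0.24. The summed share of these loci leaned the other way, below WT 8 h, though the nearest libraries stood at 1.62% and 1.63%. Each subfamily counts once in the median, whatever its level. What lay behind this difference was not tested.

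**Figure D4:**
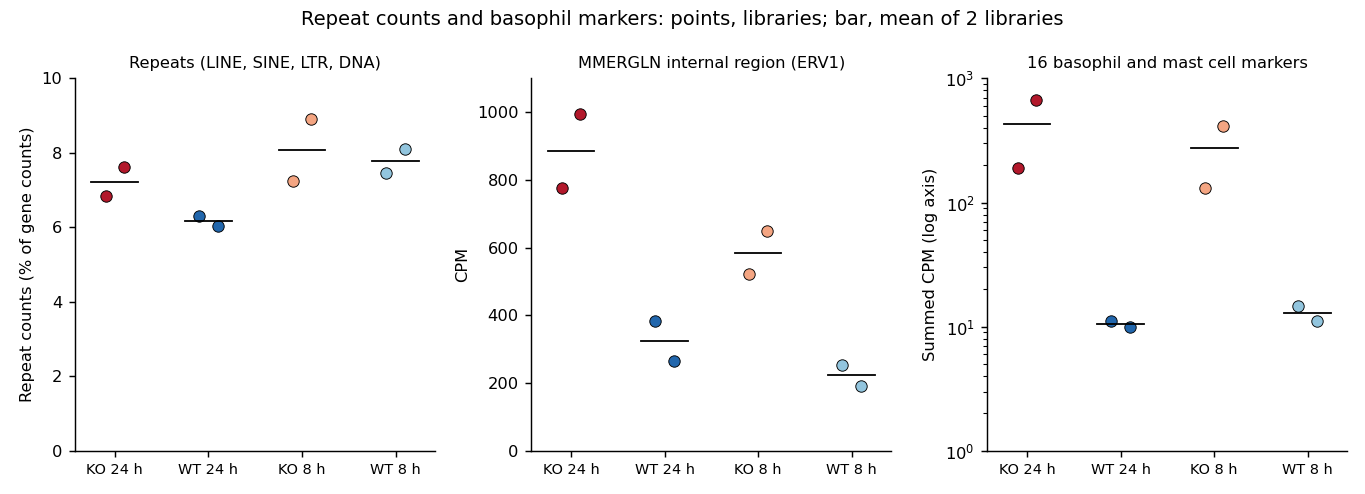
Repeat counts as a percentage of gene counts (left), CPM of the MMERGLN internal region (middle) and the summed CPM of 16 basophil and mast cell markers on a log axis (right) in KO 24 h, WT 24 h, KO 8 h and WT 8 h cells. Points are libraries and bars the mean of 2. KO 24 h and WT 8 h overlap on the left, KO 24 h is highest in the middle, and the marker sums on the right are 189 and 670 CPM in KO 24 h cells against 14.6 and 11.1 CPM in WT 8 h cells.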

How the data were processed

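Gene and repeat locus counts were deposited by the authors as unnormalized whole numbers for 12 libraries, 2 for each of 6 groups. Reads were trimmed with fastp 0.12.4 and aligned to mm10 with STAR 2.7.1a, per the submitters' processing notes. The counter, its strand setting and its treatment of reads shared by near-identical genes are not given in these sources, so overlapping genes cannot be told apart. Symbols were found for 54079 of 54232 genes. edgeR 4.0.16 (R 4.3.3) fitted 6 group means to all 12 libraries with TMM scaling, filterByExpr by group (minimum count 10, minimum total 15) and robust quasi-likelihood tests on 6 residual degrees of freedom. This left 15679 genes. A gene was called where its p, adjusted over all of them by Benjamini-Hochberg, was under 0.05, and SE was taken from the F statistic. Repeat counts of LINE, SINE, LTR and DNA loci were summed per subfamily and scaled with the library sizes and factors of the gene table. Alternatives were DESeq2 1.42.0, RLE factors, other filters, fewer libraries and a term for replicate number. The fit of KO 24 h against WT 8 h was also run on simulated counts. Few genes differed between the groups there, so that run does not bear on scaling where many differ. Lists, members and named genes were chosen with earlier results of these data known. Genes were named from a fixed key set, by size of change where the mean CPM reached 5, and as the 3 members of each list with the smallest p.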

Additional observations from a re-analysis of the deposited data

Results flagged for a closer look

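Among genes that passed against WT 8 h in both 24 h groups with opposite signs, 10 were picked by size, so the differences between KO 24 h and WT 24 h cells given here follow from the choice and are a description. Sox4, a transcription factor of progenitor lymphocytes, stood at 26.9 and 22.2 CPM in KO 24 h and 2.37 and 2.38 CPM in WT 24 h cells, against 7.66 and 7.21 CPM in WT 8 h cells. KO 24 h cells were thus above and WT 24 h cells below the WT 8 h level, and they differed by 3.36 on the log2 scale. Trdc, the constant region of the delta T cell receptor chain, stood at 16.3 and 13.5 CPM in KO 24 h and 1.94 and 1.68 CPM in WT 24 h cells, against 5.02 and 5.74 CPM in WT 8 h cells, a difference of 3.04 between the 24 h groups. For Il1r2, a decoy receptor for IL-1, the difference was 3.75, for Lilr4b, an inhibitory receptor, 3.88 and for Chst11, a chondroitin sulfotransferase, 2.78. The falls of Il1r2 and Lilr4b in WT cells lost their call in some alternatives, and Lilr4b has a near-identical copy.

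In the other direction, Ctnnal1 stood at 0.981 and 0.701 CPM in KO 24 h and 11.4 and 12.5 CPM in WT 24 h cells, against 2.76 and 4.16 CPM in WT 8 h cells. The log2 difference between the 24 h groups was -3.82. It was -2.95 for Spin2c, -2.84 for the uracil glycosylase gene Ung, -2.57 for Syce2, of the synaptonemal complex, and -2.55 for the licensing factor gene Cdt1. All 5 were lower in both KO 24 h libraries than in both WT 8 h libraries.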

How the results depend on the processing

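For KO 24 h against WT 8 h, the 6419 genes called became 5944 with DESeq2, 6653 with RLE factors, 6451 without a filter, 6351 with a CPM filter, 7636 in a fit of the 2 groups alone and 7032 without the 0 h libraries, an alternative chosen after seeing the data. Replicate numbers did not pair KO 24 h with WT 8 h libraries (r = 0.0318 between their deviations), and a replicate block gave 6725. RLE factors moved the median of all genes to -0.035. Within a genotype, r between 8 h and 24 h deviations was 0.222 for KO and 0.106 for WT. With a replicate block the calls between these times were 5720 for KO (5397 without) and 7057 for WT (6783 without). KO 8 h against WT 8 h gave 415 calls, 669 with DESeq2, 862 without a filter, 669 with the replicate block, 652 without the 0 h libraries and between 103 and 438 when 1 library was left out. The 70 repeat subfamilies became 111 in the fit of the 2 groups alone, 144 with scaling from the repeat table and between 21 and 40 when 1 library was left out. Over loci outside genes, 18 of the 71 calls were among the 70. The cause was not tested. Of 6388 values of named genes under alternatives, 6034 kept direction and call, 309 lost the call, 42 gained one and 3 changed sign. These were Prdm1 at 0.30 without KO 24 h replicate 2 and 0.05 without WT 8 h replicate 1 (-0.10 with all libraries), and Tcf7 at 0.10 without WT 8 h replicate 2 (-0.07), none of them called. Their values with 1 library left out ranged from -0.65 to 0.30 for Prdm1 and from -0.23 to 0.10 for Tcf7. Only 2 libraries per group limit the precision of every value.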

Other observations

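Regulatory T cell markers were higher in KO 24 h than in WT 8 h cells for 7 of 10 genes, with summed levels of 1599 and 1558 CPM in KO 24 h and 991 and 1063 CPM in WT 24 h cells, against 1043 and 1107 CPM in WT 8 h cells. Foxp3, their lineage factor, stood at 10.9 and 14.0 CPM in KO 24 h and 12.9 and 13.4 CPM in WT 24 h cells, against 2.76 and 3.28 CPM in WT 8 h cells. The 24 h groups overlapped. Of the marker sums, Il2ra made up 887 and 820 CPM in KO 24 h cells, against 743 and 814 CPM in WT 8 h cells. Its own difference did not pass (log2 0.13 ± 0.11, adjusted p = 0.367). In WT cells 5 of the 10 markers rose and 1 fell by 24 h. Of 65 nuclear genes of the respiratory chain 7 rose and 7 fell in KO 24 h cells against WT 8 h, with between 2 and 4 that rose and between 1 and 4 that fell when 1 library was left out, beside 34 that rose and none that fell in WT cells by 24 h. Of 20 aminoacyl tRNA synthetase genes 5 rose and 8 fell, with between 2 and 5 and between 3 and 5 when 1 library was left out. Erythroid and platelet markers summed to 34.9 and 57.4 CPM in KO 24 h cells, against 155 and 40.4 CPM in WT 8 h cells. Of 9 tested, 3 were called higher (Klf1, Pf4 and Itga2b) and none lower, yet the median log2 fold change was -1.40. The globin genes and Alas2 had lower values (log2 -1.40 to -2.57) that did not pass. Of 13 ERK feedback genes 2 rose and 4 fell, and 1 rose when any 1 library was left out. Of 5 B cell markers 1 was higher, and of 8 stromal and endothelial markers 1 was higher, but none without either WT 8 h library.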
